A study of Homo sapiens with 6 samples.

Results

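The GPRC5 family comprises the orphan G protein-coupled receptors GPRC5A, GPRC5B, GPRC5C and GPRC5D, and its 4 members were taken by gene symbol from a table of 54644 genes. The family was chosen by the counts of GPRC5A, which were lower in every CTTN-overexpressing library and close to each other there, so both the difference in GPRC5A counts and their steadiness are described here and not tested. SKBR3 is an established HER2+ breast adenocarcinoma cell line of epithelial type. CTTN encodes cortactin, an actin-binding protein of the cell cortex and of invasive protrusions. Both groups were stable SKBR3 cells made by lentiviral infection and puromycin selection, with the empty pLVX vector in the control group (n = 3) and CTTN cDNA in pLVX-CTTN in the other (n = 3). The CTTN transgene was thus present in addition to the cells' own CTTN gene, and the labels do not say whether each stable line was a clone or a pool. Poly(A)-selected, strand-specific RNA libraries were sequenced, and the comparison asked which transcripts changed with CTTN overexpression.

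GPRC5 receptors belong to class C of the G protein-coupled receptors but have short extracellular ends in place of the large ligand-binding domain of the glutamate and GABA-B receptors. No ligand is established for them. GPRC5A was identified as a gene induced by retinoic acid and is found mainly in epithelia, above all in the lung, where mice without it develop tumors. GPRC5B is a lipid-raft protein found widely in brain and adipose tissue, GPRC5C is found in kidney and other epithelia, and GPRC5D is a surface protein of plasma cells and hair follicles used as an antibody target in myeloma.

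The 4 genes lie at 3 places in the genome. In the GRCh38 coordinates of the data, the GPRC5A locus is chr12:12890782-12917937, that of GPRC5B is chr16:19555240-19886167, a merged locus that also holds KNOP1, IQCK, VPS35L and other genes, and that of GPRC5C is chr17:74424851-74451653. GPRC5D lies next to GPRC5A, in a merged locus at chr12:12927726-13000273 that also holds its antisense transcript GPRC5D-AS1 and HEBP1. The GPRC5B gene itself spans chr16:19856691-19885634 in RefSeq. Because the members are relatives, their coding sequences were aligned to see how far reads could be shared. In the reference transcripts ENST00000014914, ENST00000300571, ENST00000392629 and ENST00000228887 the coding sequences were 1074 bases in GPRC5A, 1212 in GPRC5B, 1326 in GPRC5C and 1038 in GPRC5D. Pairwise identity of aligned bases ran from 51.1% for GPRC5B and GPRC5D to 58.9% for GPRC5B and GPRC5C. The longest identical run between any pair of these transcripts was 20 bases. The 90 aligned coding bases with the most positions shared by all 4, from GENCODE v44, are shown to let the members be compared, with capitals marking the 41 shared positions.
GPRC5A: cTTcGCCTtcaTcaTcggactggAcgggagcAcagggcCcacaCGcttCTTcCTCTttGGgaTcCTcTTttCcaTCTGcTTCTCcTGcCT
GPRC5B: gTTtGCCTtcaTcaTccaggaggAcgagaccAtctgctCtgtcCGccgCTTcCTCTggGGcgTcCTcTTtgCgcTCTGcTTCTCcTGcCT
GPRC5C: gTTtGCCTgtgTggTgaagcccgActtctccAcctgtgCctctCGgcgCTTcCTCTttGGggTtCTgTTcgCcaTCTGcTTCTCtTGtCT
GPRC5D: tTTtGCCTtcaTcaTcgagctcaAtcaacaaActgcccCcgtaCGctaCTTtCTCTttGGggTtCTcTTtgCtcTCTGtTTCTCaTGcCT
These stretches start at coding base 246 in GPRC5A, 330 in GPRC5B, 312 in GPRC5C and 231 in GPRC5D. Even in this most conserved stretch 49 of the 90 positions differed in at least 1 member.

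The GPRC5A row of the table also holds the microRNA gene MIR614, whose hairpin lies within the GPRC5A locus at chr12:12915829-12915918 on the plus strand. Its mature sequence in RefSeq (GRCh38.p14) is given because any fragment of it would count toward GPRC5A, with the seed, bases 2 to 8, in capitals.
hsa-miR-614: gAACGCCUguucuugccaggugg
The 90-base MIR614 hairpin was assigned 0 fragments in each of the 6 libraries, so all counts of the row were assigned to GPRC5A transcripts. The assignment is an estimate by Cufflinks for a hairpin inside the GPRC5A locus, so it cannot show whether hairpin fragments were among them. Small RNAs are not captured by poly(A) selection, so the microRNA itself was not measured.

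The libraries held 34887079 to 41279658 fragments assigned to genes, and 20341 to 21038 genes had a count above 0. The 3 control libraries were close to each other (Pearson r across genes of log2(FPKM + 1), 0.9885 to 0.9914, where FPKM is fragments per kilobase of transcript normalized for library size), whereas the CTTN libraries stood apart from each other, with r = 0.9566 between CTTN 2 and CTTN 3. CTTN 2 was the nearest to the controls (r = 0.9817 to 0.9865) and CTTN 3 the farthest (0.9526 to 0.9591). The coefficient of variation of the normalized count had a median over the genes tested of 5.44% in controls and 16.3% in CTTN cells. CTTN itself had normalized counts of 10912, 11228 and 11265 in the controls and 29088, 37144 and 18999 in CTTN 1, 2 and 3. Its log2 fold change was 1.35 (SE 0.22, edgeR quasi-likelihood adjusted p = 0.028), and the adjusted p was above 0.05 when any control or CTTN 1 was left out, with the highest value 0.17. With all libraries it was also above 0.05 with the replicate number as a block (0.065) and with limma on log2(FPKM + 1) and log2(FPKM + 0.1), at 0.057 and 0.056. Of 7 markers of luminal HER2+ cells, KRT8, KRT18, KRT19, EPCAM, GRB7 and ERBB2 were all abundant (mean FPKM of ERBB2, 1675 in controls and 1739 in CTTN cells), whereas CDH1, which encodes the epithelial cadherin, was at 0.130 and 0.105 FPKM. Of 6 mesenchymal and stromal markers, ZEB1 was at 0 in every library and the summed level was 3.70 to 4.51 FPKM in controls and 3.19 to 4.50 FPKM in CTTN cells. Of 8 blood and plasma cell markers, TNFRSF17, IRF4 and MS4A1 were at 0, and the summed level, nearly all from MZB1, was 15.3 to 18.2 FPKM in controls and 10.99 to 23.1 FPKM in CTTN cells. The counts below are fragments divided by the size factor of each library. In such bulk samples fewer cells with a transcript and less transcript per cell cannot be told apart, and the p-values measure only the spread between these libraries.

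GPRC5A was the most abundant member in control cells by FPKM of the whole gene and was lower in every CTTN library. Its normalized counts were 2928, 3149 and 3071 in controls 1, 2 and 3, and 1172, 1289 and 1069 in CTTN 1, 2 and 3. The groups did not overlap, which the choice of the family fixed. The means were 3050 ± 112 (SD, n = 3) in controls and 1177 ± 110 (SD, n = 3) in CTTN cells, a log2 difference of -1.37 (SE 0.10), or a 2.59-fold lower level. This difference was what chose the family, so no test is attached to it. The library with the most CTTN, CTTN 2, had the highest GPRC5A count of the 3, and CTTN 3, with the least CTTN, had the lowest. Over all genes CTTN 2 was also the nearest to the controls and CTTN 3 the farthest. Between these libraries GPRC5B had the same order and GPRC5C the reverse, and a relation to the CTTN level was not tested. Without CTTN 2 the log2 difference was -1.45, and without CTTN 3 it was -1.31.

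GPRC5B, the lipid-raft member, was also lower in each CTTN library. Its normalized counts were 807, 855 and 911 in the controls and 496, 585 and 462 in CTTN 1, 2 and 3, and the groups did not overlap. The means were 858 ± 52.2 and 514 ± 63.7 (SD, n = 3 each), a log2 fold change of -0.74 (SE 0.11) or 1.67-fold lower, with an edgeR adjusted p of 0.021 over the 14433 genes tested. A gene was called where the adjusted p was under 0.05 and the change at least 1.5-fold, and 434 genes (3.01%) were called, 197 of them (1.36%) lower and 237 (1.64%) higher in CTTN cells. GPRC5B was therefore 1 of 2 members tested for a difference, and the only one of these called. The call was lost when any control or CTTN 1 was left out (adjusted p = 0.10 to 0.14), and its adjusted p was 0.0014 without CTTN 2 and 0.0068 without CTTN 3. Over 14 alternative analyses the adjusted p ran from 4.8e-06 with DESeq2 to 0.14, and 7 of them were under 0.05. With limma on log2(FPKM + 1) it was 0.071, and with the replicate number as a block in edgeR it was 0.075. The count of all genes called moved likewise, to between 11 and 27 when any control or CTTN 1 was left out, to 597 without CTTN 3 and to 3130 without CTTN 2.

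GPRC5C had the smallest difference of the 3 well-measured members. Its normalized counts were 554, 501 and 543 in the controls and 406, 385 and 491 in CTTN 1, 2 and 3. CTTN 3 lay just under control 2, and the other CTTN libraries were well below all controls. The means were 533 ± 28.03 and 427 ± 56.0 (SD, n = 3 each), a log2 fold change of -0.32 (SE 0.12) with an edgeR adjusted p of 0.14, so GPRC5C did not pass the test. Without CTTN 3 the log2 fold change was -0.43 with an adjusted p of 0.028, still under 1.5-fold, and in the other 13 alternatives the adjusted p stayed above 0.05. Both GPRC5B and GPRC5C had every CTTN library below every control, as did 2730 of the 14433 genes tested (18.9%), while 2843 genes (19.7%) had every CTTN library above.

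GPRC5D, the plasma cell and hair follicle member, was close to the limit of detection. Its normalized counts were 10.3, 7.86 and 2.87 in the controls and 4.15, 2.93 and 5.54 in the CTTN libraries, which stood for 10, 9 and 3 fragments and 4, 3 and 5 fragments. The groups overlapped. It did not pass the filter on low counts, so 3 of the 4 members were tested or described with a fitted fold change, and a difference in GPRC5D was not tested. The antisense transcript GPRC5D-AS1, on the other strand of the same locus, had normalized counts of 41.3, 30.5 and 23.95 in the controls and 31.1, 26.4 and 34.4 in CTTN cells, with a log2 fold change of -0.08 (SE 0.26, edgeR adjusted p = 0.85). A strand-specific kit was used, but whether the counting used strand is not given in the sources used here, so fragments of these overlapping genes may have been exchanged.

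**Figure D1:**
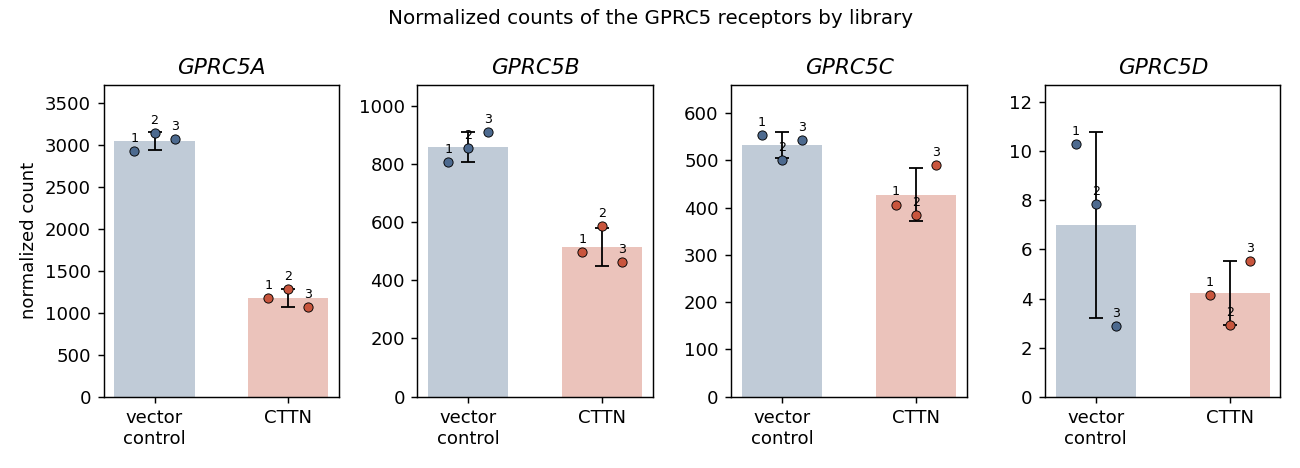
Normalized counts (fragments divided by the library's size factor) of each receptor, with points for libraries 1 to 3 of each group, bars for the mean and error bars for the SD. GPRC5A, GPRC5B and GPRC5C have all CTTN libraries below all controls, as do 18.9% of all genes tested. For GPRC5A this was fixed by the choice of the family. GPRC5D stays at or under 10.3 in every library.

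Levels of different genes are compared per length, as FPKM. In controls the order was GPRC5A, GPRC5C, GPRC5B and GPRC5D, at means of 21.3 ± 1.40, 12.0 ± 0.841, 6.86 ± 0.508 and 0.347 ± 0.222 FPKM (SD, n = 3 each). No neighbours in this order overlapped: the lowest GPRC5A level was 19.7 FPKM and the highest GPRC5C level 12.97 FPKM. The level of ENST00000014914 alone was 11.9 to 12.9 FPKM, within the GPRC5C range of 11.4 to 12.97 FPKM. The place of GPRC5A above GPRC5C thus depends on short transcripts to which Cufflinks assigned few of its fragments. In CTTN cells the means were 9.72 ± 1.47 FPKM for GPRC5C, 8.21 ± 2.78 for GPRC5A, 4.42 ± 0.337 for GPRC5B and 0.159 ± 0.047 for GPRC5D (SD, n = 3 each). There GPRC5C and GPRC5A overlapped and did not differ beyond their spread, while GPRC5B and GPRC5D each lay below the member above them without overlap. The FPKM ratio of GPRC5A to GPRC5C was 1.52, 1.95 and 1.88 in the controls and 0.778, 1.36 and 0.520 in CTTN 1, 2 and 3, so GPRC5A remained above GPRC5C in CTTN 2 and was below it in the other CTTN libraries. In CTTN 2 the order depends on how Cufflinks divided the GPRC5A fragments. There ENST00000014914 was at 5.11 FPKM and the short ENST00000542056 and ENST00000534831 at 3.01 and 3.15 FPKM, beside 8.28 FPKM for GPRC5C. The GPRC5A level exceeded that of 82% of the genes detected in controls and of 69.4% in CTTN cells. The corresponding shares were 74.3% and 71.6% for GPRC5C, 67% and 62.5% for GPRC5B, and 41.7% and 32.9% for GPRC5D.

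**Figure D2:**
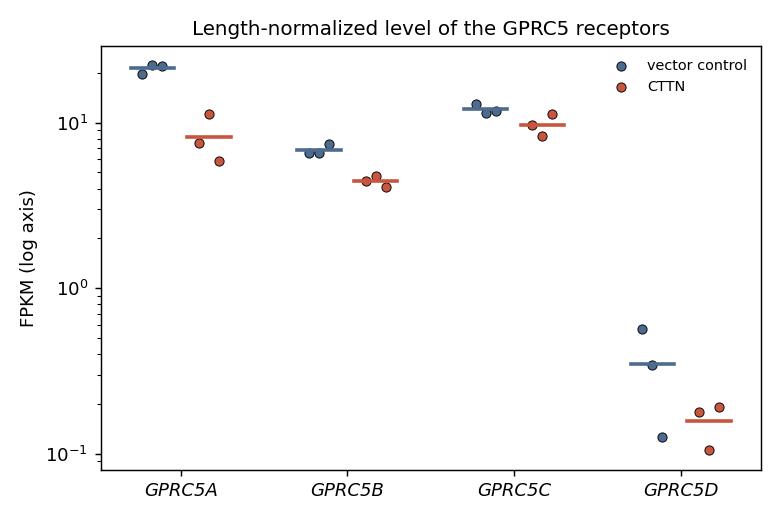
FPKM of each receptor on a log axis, with a point per library and a line at the mean of each group. GPRC5A is above GPRC5C in all controls, and the 2 receptors overlap in CTTN cells at means of 8.21 and 9.72 FPKM.

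The lower GPRC5A count lay mainly in its full-length transcript. The GPRC5A row held 7 transcripts in 5 transcription start groups, and 4 of them reached a normalized count of 10 in any library. The start group of ENST00000014914 (TSS25031), which encodes the whole receptor, had 2759, 2946 and 2869 counts in the controls and 1110, 1155 and 1036 in CTTN 1, 2 and 3. It held 93.4% to 94.2% of the row in controls and 94.7%, 89.6% and 96.9% in CTTN 1, 2 and 3. Such shares are Cufflinks estimates of how fragments divide between overlapping transcripts. The level of ENST00000014914 alone was 11.9, 12.9 and 12.6 FPKM in the controls and 4.71, 5.11 and 4.30 FPKM in the CTTN libraries, a tighter set than the gene level of 7.51, 11.3 and 5.84 FPKM in CTTN cells. In controls most of the rest of the GPRC5A level came from ENST00000534831 and ENST00000542056, at means of 5.09 and 3.65 FPKM. The wider spread of the gene level came with 2 short transcripts, in which a few fragments weigh heavily per length. ENST00000542056 (832 bases) was at 0.81, 3.01 and 1.54 FPKM in CTTN 1, 2 and 3, and ENST00000534831 (897 bases) was at 1.91, 3.15 and 0 FPKM.

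GPRC5B fragments were divided mainly between 3 of its 15 transcripts. The start group of ENST00000300571 (TSS48419), the full-length receptor, had 493, 531 and 522 counts in the controls and 308, 327 and 268 in the CTTN libraries, with no overlap and a share of 57.3% to 62.0% in controls against 55.8% to 62.1% in CTTN cells. The start group of ENST00000569479 (TSS48421) had 204, 283 and 341 counts in the controls and 70.0, 195 and 42.1 in CTTN 1, 2 and 3. The start group of ENST00000562348 (TSS48418) overlapped between the groups, at 111, 42.2 and 41.2 counts in the controls and 115, 63.6 and 152 in CTTN 1, 2 and 3. The groups of ENST00000300571 and ENST00000569479 were thus lower in all CTTN libraries, and that of ENST00000562348 was not.

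GPRC5C had no single main transcript, and 12 of its 14 transcripts reached a count of 10 in at least 1 library. The largest start group in controls, that of ENST00000392629 (TSS53595), had 152, 228 and 208 counts in the controls and 137, 90.3 and 120 in CTTN 1, 2 and 3. In CTTN 2 that of ENST00000392628 (TSS53594) was above it, at 95.6 counts and 24.8% of the gene. In CTTN 3 the largest group was instead that of ENST00000342648 (TSS53592), at 183 counts and 37.3% of the gene, against 42.6 to 108 counts in the other 5 libraries. CTTN 3 was also the library with the highest GPRC5C count of the CTTN cells.

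**Figure D3:**
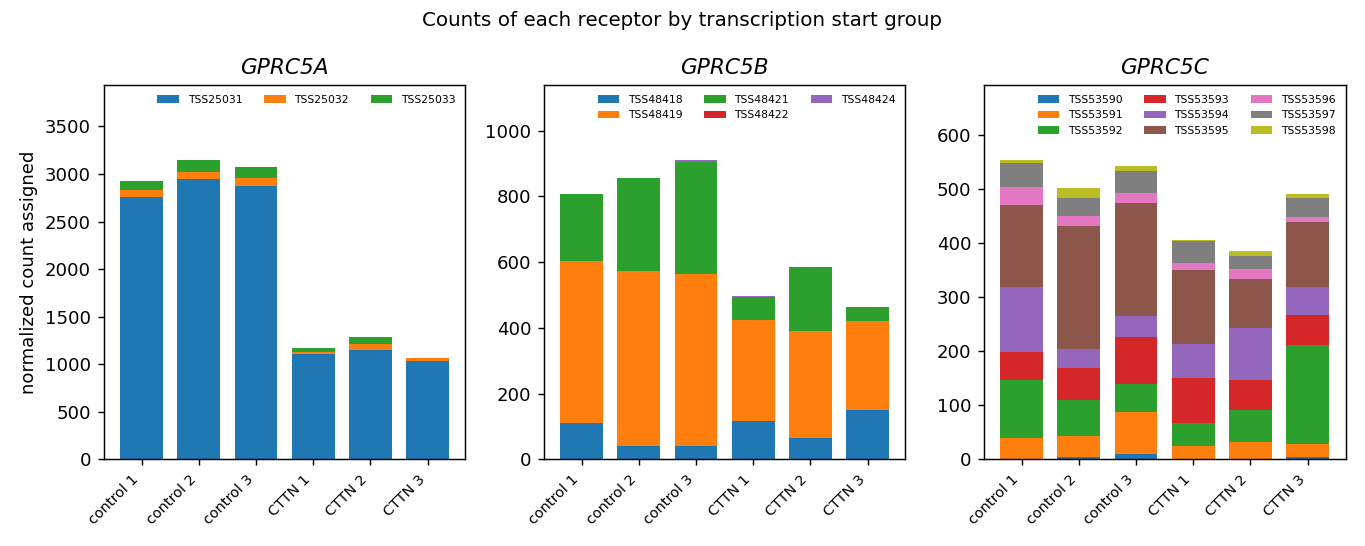
Normalized counts of GPRC5A, GPRC5B and GPRC5C per library, stacked by transcription start group as Cufflinks assigned them (groups with a count of at least 1). TSS25031 makes up 89.6% to 96.9% of GPRC5A in every library, and TSS53592 reaches 183 counts of GPRC5C in CTTN 3.

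The promoter of GPRC5B is shown because GPRC5B was the member whose difference was tested and called. RefSeq gives it (GRCh38.p14) at chr16:19885585-19885884 on the minus strand, 250 bases before the start site and 50 after it. It was searched on both strands for the retinoid receptor hexamers AGGTCA and AGTTCA, the cAMP response element core TGACG, the GC box GGGCGG and the TATA box TATAAA, and capitals mark the matches.
GPRC5B promoter: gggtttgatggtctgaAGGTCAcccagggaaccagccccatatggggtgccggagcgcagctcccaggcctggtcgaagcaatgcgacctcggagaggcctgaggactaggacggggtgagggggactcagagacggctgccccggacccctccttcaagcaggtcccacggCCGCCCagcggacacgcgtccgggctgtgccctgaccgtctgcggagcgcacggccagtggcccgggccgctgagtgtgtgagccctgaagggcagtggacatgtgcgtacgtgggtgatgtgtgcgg
AGGTCA matched at base -234 and GGGCGG at base -78 counted from the start, the latter on the other strand, and the other 3 motifs had no match in this window. Of 35116 promoters of the same length, 13.8% held AGGTCA, 10.4% AGTTCA, 24.6% TGACG, 45% GGGCGG and 11.5% TATAAA. The GPRC5D window of 300 bases held TATAAA 2 times and GGGCGG 1 time. GC content was 68.3% in the GPRC5B window and 45% in that of GPRC5D. A match is only a run of letters, and binding was not measured.

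Because GPRC5A and its relatives are known as retinoic acid-induced genes, the other genes of retinoid signalling were examined in the same fit. Of 25 retinoid genes found, 17 were tested, 0 were called higher and 2 called lower, beside 1.64% and 1.36% of all genes tested. At an unadjusted p under 0.05, edgeR gave 0 higher and 6 lower, beside 15.8% and 13.5% of all genes tested (29.4% in both directions), and DESeq2 also called 0 higher and 2 lower. The median log2 fold change of the 17 genes was -0.17, against 0.011 over all genes tested, and 14 of the 17 were negative, against 49.3% of all genes tested. RARB, the retinoic acid receptor that is itself a retinoic acid target, had 113, 120 and 119 counts in the controls and 38.4, 33.2 and 28.8 in CTTN cells, a log2 fold change of -1.81 (SE 0.16, edgeR adjusted p = 0.0042). STRA6, the membrane receptor that takes up retinol, had a log2 fold change of -0.63 (SE 0.11, adjusted p = 0.028). Without control 2 or control 3 neither was called (adjusted p of RARB 0.060 and 0.055), and the STRA6 call was also lost without control 1 or CTTN 1, at adjusted p of 0.13 to 0.15. By limma on log2(FPKM + 1) and log2(FPKM + 0.1) the adjusted p was 0.074 and 0.076 for STRA6, and 0.037 and 0.061 for RARB. With the replicate number as a block in edgeR it was 0.090 for STRA6 and 0.040 for RARB. ALDH1A3, an enzyme that makes retinoic acid, had a log2 fold change of -0.52 (edgeR adjusted p = 0.039) with all libraries. It missed the call there only because the change, 1.43-fold, was under the 1.5-fold minimum. Without CTTN 2 it was also called lower (log2 fold change -0.61). Of the abundant members, CRABP2, which carries retinoic acid to the nucleus, had a log2 fold change of 0.07 (adjusted p = 0.78), RARA of 0.06 (adjusted p = 0.65) and DHRS3, a retinaldehyde reductase, of -0.36 (adjusted p = 0.12).

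Other class C receptors were mostly silent in SKBR3 cells. Of 18 examined, 11 stayed under 0.1 FPKM in every library and 5 were tested, of which 0 were called by edgeR (3.01% of all genes tested), with a median log2 fold change of -0.29. At an unadjusted p under 0.05 there were 0 higher and 2 lower, beside 15.8% and 13.5% of all genes tested. The GABA-B receptor subunit GABBR1 had a log2 fold change of 0.45 (SE 0.24, adjusted p = 0.23) in a row it shares with UBD, and the orphan GPR158 of -0.48 (SE 0.18, adjusted p = 0.14). The sweet taste receptor TAS1R2 shared its row with the mitochondrial enzyme gene ALDH4A1 and with IFFO2, so that row, at 40.5 FPKM in controls, gives no level for TAS1R2. GABBR2, singled out after its value was seen, had a log2 fold change of -1.69 (SE 0.36, adjusted p = 0.053) at 27.9 counts or fewer in every library. By limma on log2(FPKM + 1) no gene of this group was called either, and 1 was by DESeq2, GABBR2. Leaving out CTTN 2 gave 2 calls (GABBR2 and GPR158, both lower) and leaving out CTTN 3 gave 1 (GABBR1, higher).

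Among 13 genes described as partners of GPRC5A or as changed when it is lost, all were tested, 0 were called higher and 1 lower by edgeR, beside 1.64% and 1.36% of all genes tested. At an unadjusted p under 0.05 there were 0 higher and 4 lower, beside 15.8% and 13.5%. The gene called was LCN2, the secreted iron-binding protein lipocalin 2, at 1365, 1179 and 1229 counts in the controls and 699, 639 and 816 in CTTN cells (log2 fold change -0.81, SE 0.12, edgeR adjusted p = 0.020). The LCN2 call was lost when any control or CTTN 1 was left out, at adjusted p up to 0.13. It was also lost with the replicate number as a block (edgeR adjusted p = 0.065). The median log2 fold change of the 13 genes was -0.27, against 0.011 over all genes tested, and 10 were negative, against 49.3% of all genes tested. The most abundant of the others were GNAS and GNB1, subunits of heterotrimeric G proteins, with log2 fold changes of 0.08 (adjusted p = 0.61) and 0.12 (adjusted p = 0.27), and the transcription factor STAT3 with -0.27 (adjusted p = 0.27). EGFR, a receptor reported to bind GPRC5A, had a log2 fold change of -0.34 (SE 0.23, adjusted p = 0.32), and it was called lower only without CTTN 2 (log2 fold change -0.66, adjusted p = 0.0035).

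**Figure D4:**
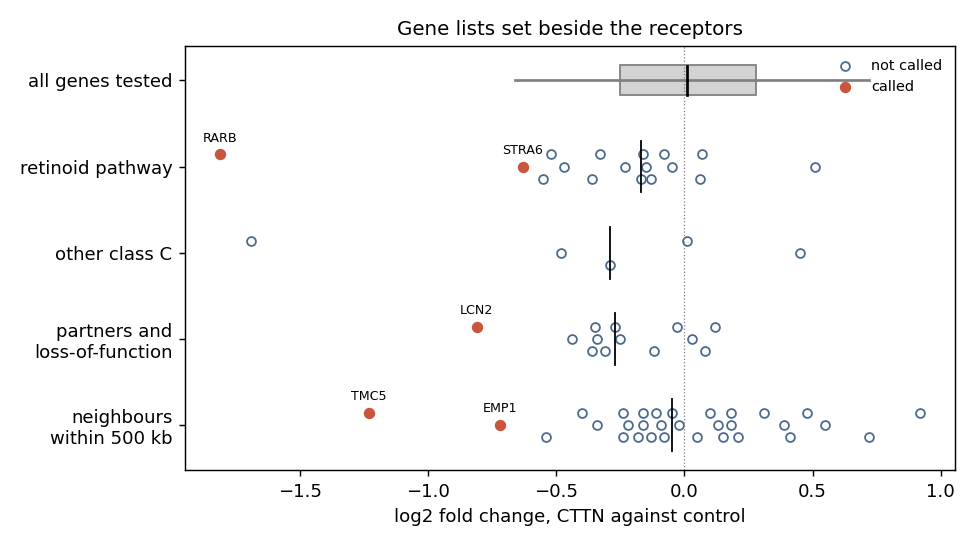
Log2 fold change (CTTN against control) of each tested gene in 3 gene lists and among genes within 500 kb of the receptor loci, with filled points for called genes and a line at each median. The box and line for all 14433 genes span the quartiles and percentiles 5 to 95. RARB at -1.81 lies farthest to the left, and 5 genes in all are called, each of them lower.

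The genes around the 4 loci were examined to see whether the difference was shared along the chromosome. Within 500 kb of the loci 31 other genes were tested, 0 called higher and 2 lower by edgeR, beside 1.64% and 1.36% of all genes tested. Because the GPRC5B locus is merged, COQ7, TMC7 and the shared row of ITPRIPL2 and SYT17 were counted although they lie over 500 kb from the GPRC5B gene in RefSeq. The median log2 fold change was -0.05 in all, -0.02 around GPRC5A and GPRC5D, -0.16 around GPRC5B and 0.31 around GPRC5C, against 0.011 over all genes tested. At an unadjusted p under 0.05 there were 6 higher and 5 lower, beside 15.8% and 13.5%, and DESeq2 called FDXR, near GPRC5C, higher. EMP1, a tetraspan membrane protein of epithelia 278.8 kb from GPRC5A, had 4579, 4408 and 4230 counts in the controls and 2789, 2817 and 2403 in CTTN cells, a log2 fold change of -0.72 (SE 0.09, edgeR adjusted p = 0.012). TMC5, a transmembrane channel-like protein gene 56.1 kb from the merged GPRC5B locus and 357.6 kb from the GPRC5B gene in RefSeq, had 788, 788 and 799 counts in the controls and 349, 367 and 296 in CTTN cells, with a log2 fold change of -1.23 (SE 0.10, adjusted p = 0.0042). Both calls were lost without control 2, control 3 or CTTN 1, and that of EMP1 also without control 1, at adjusted p of 0.053 to 0.060 for TMC5 and 0.083 to 0.10 for EMP1. EMP1 was also uncalled by limma on log2(FPKM + 1) and log2(FPKM + 0.1), at adjusted p of 0.14 and 0.13. With the replicate number as a block in edgeR its adjusted p was 0.052, and TMC5 stayed called in these fits. Leaving out CTTN 2 gave 5 calls, 2 higher and 3 lower. The rows on either side of GPRC5A in the gene table were RPL13AP20, at 0.280 and 0.310 FPKM in the 2 groups, and GPRC5D-AS1. Next to GPRC5D, HEBP1, a heme-binding protein gene, had a log2 fold change of 0.39 (SE 0.16, adjusted p = 0.16), with CTTN libraries above the controls. The rows beside GPRC5B (LARP7P2 and GPR139) and GPRC5C (GPR142 and CD300A) were at 0 in every library. The most abundant neighbours, RPL38, SLC9A3R1 and HID1, all near GPRC5C, had log2 fold changes of 0.48, 0.31 and 0.13, with adjusted p-values of 0.19, 0.13 and 0.27.

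**Figure D5:**
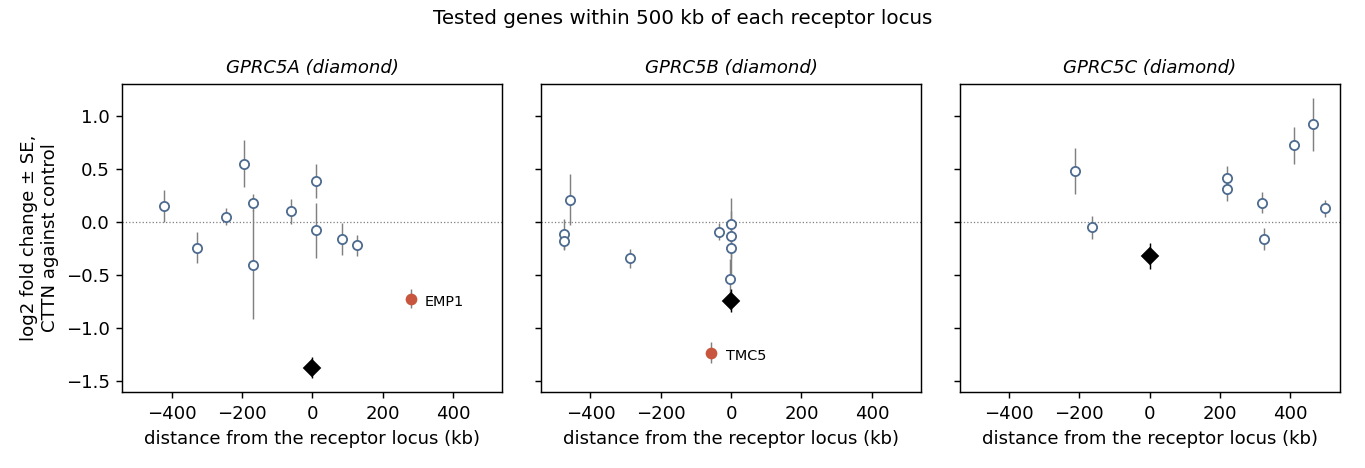
Log2 fold change (CTTN against control, bars are SE) of tested genes against their distance in kb from the GPRC5A, GPRC5B and GPRC5C loci (merged with other genes for GPRC5B), with the receptor as a diamond and called genes filled. EMP1 and TMC5 are called, and the genes between GPRC5A and EMP1 lie between -0.22 and 0.39.

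The genes whose levels followed those of each member most closely were sought among 11897 genes with a mean of at least 1 FPKM, by the root mean square difference of centred log2(FPKM + 1) over the 6 libraries. For GPRC5A they were CP, the copper-carrying ferroxidase ceruloplasmin, at a difference of 0.089 log2 units, ANO1, STEAP4, HERC2P3 and CA12, the last at 0.163. CP had group means of 43.8 FPKM in controls and 17.3 in CTTN cells. ANO1, a calcium-activated chloride channel of the chromosome region that also holds CTTN, had 14.1 and 5.70 FPKM, and STEAP4, a metalloreductase, had 9.75 and 4.17 FPKM. For GPRC5B they included PRPF39, SELENOP, SLC44A4 and SGPP1, at differences of 0.040 to 0.056, and for GPRC5C they were DHRS3, SERHL2, TPD52L1, CYTH1 and RND1, at 0.046 to 0.055. All the genes named here had a lower count in every CTTN library than in any control. They were chosen for this, so it is a description, and DHRS3 was also a member of the retinoid genes above.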

How the data were processed

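RNA-seq of 3 vector-control and 3 CTTN-overexpressing SKBR3 libraries was analyzed. The sources differ on the upstream steps. Per the labels, the submitters' processing notes name bcl2fastq 2.20.0, Trimmomatic, STAR, Cufflinks and GRCh38, whereas the methods of the study name Cutadapt and the hg19 reference. The deposited loci overlapped the same-named gene in RefSeq GRCh38.p14 for 99.8% of 31814 symbols and in GRCh37 for 16.1% of 32413, so coordinates are given as GRCh38 (written from base 1). The authors deposited Cuffnorm-type tables for genes, transcripts and transcription start groups, holding estimated counts divided by a size factor per library, and FPKM values normalized for length and library size by the authors. Multiplying the deposited gene counts by the size factor gave whole reads for 100% of low values (tolerance 0.02). The deposited sample table gives, as a signal value per library, the total fragment mass and the size factor that the authors' Cuffnorm run used. Sample records name the control columns q5_0 to q7_0, but the deposited sample table ties q4_0 to q6_0 to the control libraries, and the latter was used. Nearby or overlapping genes can share 1 row, which is named here by the gene of interest. The rows of RARB (with AC092422.1), TMC5 (with RNU4-46P), SLC9A3R1 (with MIR3615), ALDH1A3 (with 4 clone-named genes), GABBR1 (with UBD) and TAS1R2 were shared. Tables of coding sequences were not used.

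Deposited gene counts were rounded and tested with edgeR 4.0.16 (R 4.3.3; TMM factors, filterByExpr with a minimum count of 10, robust quasi-likelihood F test, Benjamini-Hochberg adjustment) over 14433 of 54644 genes. A call needed an adjusted p under 0.05 and at least a 1.5-fold change. Alternatives were RLE factors, library totals only, DESeq2 1.42.0, limma 3.58.1 on log2(FPKM + 1) and log2(FPKM + 0.1), no filter, recovered reads, the replicate number as a block, and each library left out. Coding sequences were aligned with MAFFT 7.526, with transcripts taken by identifier from GENCODE v44. RefSeq promoters were matched by symbol for GPRC5B and GPRC5D.

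The members, gene lists and tests were chosen with earlier results of these data known. All 4 members were named. Of each list and of genes within 500 kb, up to 3 called genes per direction and up to 3 others of highest mean FPKM were named. The rows on either side of each member were also named, and the 5 genes most like each member that passed the filter on low counts. Of the latter, 1 is not reported here. Further genes named (GABBR2, ALDH1A3, EGFR, FDXR) were chosen after their values were seen. PLAAT4 had no row under that symbol, and its older symbol RARRES3 did. Intervals of counting error are not given, because the spread between libraries exceeded it (chi-square per degree of freedom 4.56 to 163.14 between libraries of a group).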

Additional observations from a re-analysis of the deposited data

How the results depend on the processing

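In 14 alternatives the log2 difference of GPRC5A stayed between -1.45 and -1.31, both limits coming from leaving out a CTTN library. The family was chosen for the steady fall of GPRC5A in these libraries, so this narrow range is only a description. On the scale of mean FPKM it was -1.38, and -1.40 for ENST00000014914 alone, an alternative chosen after seeing the data. GPRC5C stayed negative (-0.43 to -0.25 with 1 library left out) and uncalled in all 14, and GPRC5D stayed negative in 9 but rests on 22 control and 12 CTTN fragments. GPRC5B stayed negative in all 14 and lost its call in 7, for causes that were not tested: limma gave -0.54 with a pseudocount of 1 and -0.62 with 0.1, and leaving out a library gave -0.85 to -0.67. The number of all genes called was 1083 with DESeq2, 144 and 166 with limma at pseudocounts of 1 and 0.1, and 11 to 3130 with 1 library left out. Retinoid genes called numbered 1 and 0 with the 2 limma fits and 0 to 3 with 1 library left out. Other class C receptors called numbered 1 with DESeq2 and 1 without the filter on low counts, and 0 to 2 with 1 library left out, which was also the range for the GPRC5A partners. Neighbours called numbered 1 with either limma fit and 0 to 5 with 1 library left out. Leave-one-out fits with 2 libraries in a group had fewer samples, and over all alternatives the median log2 fold change of all genes stayed between -0.035 and 0.028.

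Libraries of the same number in the 2 groups did not deviate together (r = 0.029, 0.079 and -0.19), so the numbers were not taken to pair the samples. The control numbers are those of the deposited sample table, from which the sample records differ, so this check holds only for that numbering. With the replicate number as a block, 105 genes were called (50 higher, 55 lower), GPRC5B had a log2 fold change of -0.74 with adjusted p = 0.075, and 1 retinoid gene, 0 partners and 1 neighbour were called. Of the 6 libraries, 2 correlated best with the library of their own number in the other group.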
